A study of Mus musculus with 15 samples.

Results

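Gene expression was compared between the 2 Bcat1 knock-out leukemias KO 7 and KO 3 and the 2 Bcat1 wild-type leukemias WT6 and WT0, with the counts of 3 RNA-seq libraries summed for each leukemia. A gene was called set apart when its levels in both knock-out leukemias lay above, or both lay below, its levels in both wild-type leukemias. Of 17226 genes with enough counts, 3536 were set apart, 1774 higher and 1762 lower in the knock-outs, and 13690 were not; 39827 genes were read in all. All 4 leukemias were raised in the same way. Mouse marrow progenitors that were GFP+, Lineage-, cKit+ and Sca1+ carried ΔE-NOTCH1, a shortened receptor that is active with no ligand bound, and grew in lethally irradiated C57BL/6J hosts. RNA came from spleen leukemic T cells. KO 7 and KO 3 are labelled BCAT1 KO and treated with PBS, and WT6 and WT0 are labelled BCAT1 WT and treated with PBS, although the names of the alignments of WT0 in the file header contain DMSO. The 3 further libraries of WT0 treated with an inhibitor were not used. Neither age nor sex is given. Whether the libraries within a leukemia are different mice is also not in the labels, so a leukemia counts here as 1 sample, and each genotype is represented by 2.

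BCAT1 is the cytosolic branched-chain aminotransferase. It passes the amino group of leucine, isoleucine or valine to 2-oxoglutarate, which gives glutamate and a branched-chain keto acid. BCAT2 runs the same reaction in mitochondria, and the branched-chain keto acid dehydrogenase then commits the keto acid to breakdown. In T cell leukemias driven by NOTCH1 the pathway is studied for its links to leucine supply, mTORC1 and the pool of 2-oxoglutarate that histone and DNA demethylases use.

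Library totals were 17441292 to 28902573 counts, and the sums were 55404926 in KO 7 and 62521623 in KO 3, against 74996678 in WT6 and 63076611 in WT0. Levels are given as CPM, counts per 1000000 counts after TMM scaling, which compare a gene between leukemias but not genes with each other. The 12 markers of leukemic T cells held 0.533% of counts in KO 7 and 0.711% in KO 3, against 0.664% in WT6 and 0.589% in WT0, 0 of the 12 were set apart, and the lowest level of any was 66.2 CPM. The leukemias of 1 genotype were no closer to each other than to those of the other. The median absolute log2 difference per gene was 0.39 between KO 7 and KO 3 and 0.39 between WT6 and WT0, against 0.26 between KO 3 and WT6. The biological coefficient of variation was 41.9% between leukemias of a genotype and 2.23% between libraries of a leukemia. WT0 also stood apart by sex-linked genes. Ddx3y, a Y-linked RNA helicase, had 69.2 CPM in KO 7 and 70.8 CPM in KO 3, against 88.8 CPM in WT6 and no count in WT0. Xist, which coats an X chromosome to silence it, had 110 and 216.5 CPM in KO 7 and KO 3, against 324 CPM in WT6 and 4412 CPM in WT0.

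To evaluate how far the genotypes separated, all 17226 genes were tested with edgeR's quasi-likelihood method on the sums, 2 against 2. No gene passed (0 called, 0.0% of genes), and every adjusted p was 1. At an unadjusted p under 0.05, edgeR gave 215 genes (1.25%). DESeq2 on the same sums called 43 genes (0.25%), 19 higher and 24 lower. These 43 held 10 T cell receptor segments, 2 immunoglobulin segments, 18 gene models, 1 pseudogene and 12 other genes, and all 43 were among the genes set apart. The genes described below are therefore a description of 4 leukemias.

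The genes set apart higher were 10.3% of all genes and those set apart lower 10.2%. In 569 genes (3.3%) all 6 knock-out libraries lay above all 6 wild-type libraries, and in 538 genes (3.12%) all 6 lay below. Most gaps were small. The gap, the ratio between the knock-out and the wild-type level nearest to each other, had a median of 1.076-fold for genes set apart higher and 1.095-fold for genes set apart lower. It was under 1.1-fold in 1057 and 903 genes, at least 1.5-fold in 117 and 198, and at least 2-fold in 52 and 98, higher and lower in turn. Most gaps of 1.5-fold or more lay in genes with low levels. Once genes averaging below 5 CPM were set aside, 34 higher and 33 lower genes reached 1.5-fold, and 14 and 19 reached 2-fold. The excess of lower genes at 1.5-fold was thus not seen above that level. At the edge of the rule the values were almost equal. Smarcal1, a DNA annealing helicase, was just inside with 35.6 and 37.3 CPM in KO 7 and KO 3, against 39.0 and 37.3 CPM in WT6 and WT0. Clasp1, a microtubule binding protein, was just outside with 70.1 and 71.9 CPM in KO 7 and KO 3, against 71.9 and 90.1 CPM in WT6 and WT0. On the higher side, Cops2, a subunit of the COP9 signalosome, was just inside with 127 and 152 CPM in the knock-outs and 127 and 125 CPM in the wild types. Acadvl, a fatty acid dehydrogenase of mitochondria, was just outside with 76.0 and 82.4 CPM in the knock-outs and 63.1 and 76.0 CPM in the wild types.

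Bcat1 itself (gene ID 12035) lies on chromosome 6 from 144993835 to 145076157 in GRCm38, and reads from any of its exons were counted together. It had 2.13 CPM in KO 7 and 7.10 CPM in KO 3, against 35.4 CPM in WT6 and 17.9 CPM in WT0, from 115, 447, 2745 and 1111 counts. Both knock-outs lay below both wild types in every library, and neither was at 0: KO 7 held 7.98% and KO 3 26.6% of the wild-type mean. The log2 fold change was -2.53 (SE 0.72), with an edgeR unadjusted p of 0.0172 and an adjusted p of 1. An exact two-sided permutation test gave p = 0.333, the smallest that 2 against 2 allows. The mitochondrial enzyme Bcat2 moved the other way and by less. Bcat2 had 64.2 and 74.9 CPM in KO 7 and KO 3, against 59.6 and 55.0 CPM in WT6 and WT0, and all 6 knock-out libraries lay above all 6 wild-type libraries. Per length, the level of Bcat2 was 17.5 and 20.4 RPKM in the knock-outs and 16.2 and 15.0 RPKM in the wild types, while that of Bcat1 was 0.234 and 0.781 RPKM in the knock-outs and 3.89 and 1.97 RPKM in the wild types. RPKM here is CPM per 1 kilobase of exon.

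**Figure D1:**
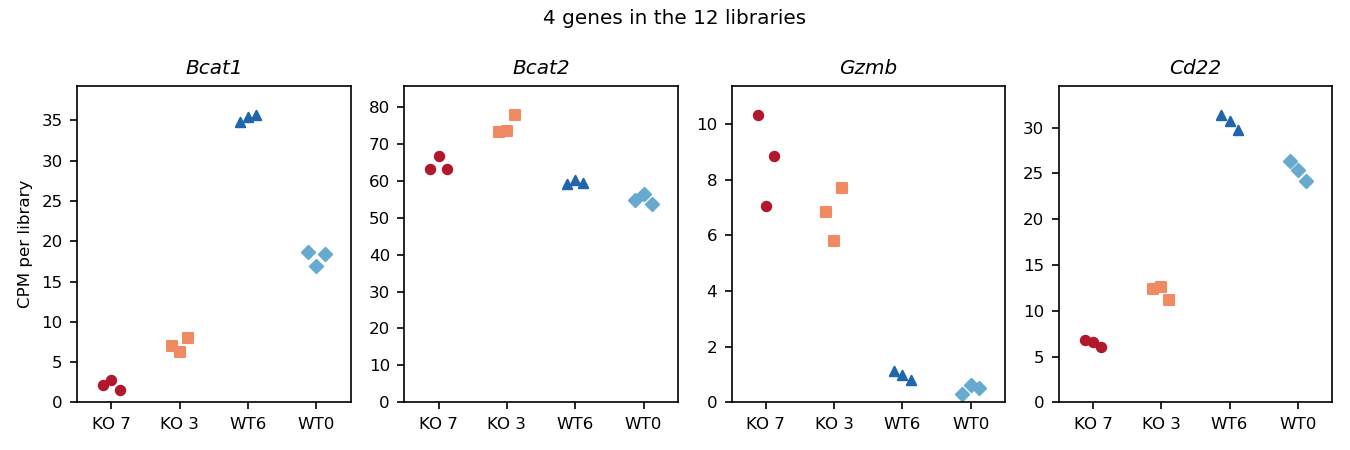
CPM of Bcat1, Bcat2, Gzmb and Cd22 in each of the 12 libraries, with KO 7 and KO 3 left of WT6 and WT0 and 1 point per library. The 3 libraries of a leukemia lie close together, and for each of these 4 genes all 6 knock-out libraries lie on the same side of all 6 wild-type libraries.

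Of the 8 genes for the branched-chain aminotransferases and the keto acid dehydrogenase, 3 were set apart higher and 1, Bcat1, lower. Bckdha, the catalytic E1 alpha subunit of the dehydrogenase, had 49.1 and 53.5 CPM in KO 7 and KO 3, against 35.1 and 39.3 CPM in WT6 and WT0 (log2 0.46, SE 0.19). Dld, the E3 subunit that this complex shares with other dehydrogenases, had 122 and 134 CPM in the knock-outs and 117 and 112 CPM in the wild types. Further down the pathway, 5 of 20 genes were set apart higher and 0 lower. Acadsb, the short/branched-chain acyl-CoA dehydrogenase of isoleucine breakdown, had 24.5 and 22.99 CPM in KO 7 and KO 3, against 18.7 and 19.9 CPM in WT6 and WT0. Pccb, a subunit of propionyl-CoA carboxylase, had 43.8 and 41.0 CPM in the knock-outs, against 34.7 and 36.8 CPM in the wild types. The steps after transamination were thus slightly above the wild types in both knock-outs for 7 of these 28 genes besides Bcat2, by gaps of at most 1.25-fold. The median log2 fold change was 0.12 for the list of 8 and 0.18 for the list of 20. Without KO 3 these medians were 0.015 and 0.013. After removal of a trend with exon length, described below, they were 0.04 and 0.07. Among 20 amino acid transporters, 1 was set apart higher and 2 lower, close to the share of all genes. Slc7a3, a cationic amino acid transporter, had 0.351 and 0.667 CPM in the knock-outs and 4.45 and 0.775 CPM in the wild types.

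Among the 15 genes with the largest gaps on the higher side, 2 were interferon-inducible GTPases, Iigp1 and Gbp2. Interferon-gamma acts through gamma-activated sites and, by way of IRF1, through interferon-stimulated response elements (ISRE), and its targets include guanylate-binding proteins (GBP) and immunity-related GTPases (IRG), which attack the vacuoles of intracellular microbes. Of these 15 genes, 12 had a promoter in the table used. Of those 12, 5 held a match to a core ISRE (Apol7e, Fcgr4, Gbp2 and Ifi208) or to a gamma-activated site (Serpina3f). Over all promoters, 3.93% held a core ISRE and 8.68% a gamma-activated site. Among the 15 largest gaps on the lower side, 12 genes had a promoter, and 1 of them, Prss2, held both. The 150 bases before the start, where the match lies, are shown for 3 of the 5 higher genes. These are the 3 whose start is that of the counted gene. Sequences are from RefSeq on GRCm38.p6, plus strand, 5′ to 3′, and capitals mark the match on either strand. They span chr3:142620513-142620662 for Gbp2, chr1:171018776-171018925 for Fcgr4 and chr12:104214394-104214543 for Serpina3f.
Gbp2: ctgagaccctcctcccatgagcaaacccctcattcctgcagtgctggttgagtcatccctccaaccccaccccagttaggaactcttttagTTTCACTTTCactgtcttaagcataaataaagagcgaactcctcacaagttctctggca
Fcgr4: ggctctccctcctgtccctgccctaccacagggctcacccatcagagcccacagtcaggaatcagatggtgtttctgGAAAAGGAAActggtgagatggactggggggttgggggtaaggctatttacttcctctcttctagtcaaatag
Serpina3f: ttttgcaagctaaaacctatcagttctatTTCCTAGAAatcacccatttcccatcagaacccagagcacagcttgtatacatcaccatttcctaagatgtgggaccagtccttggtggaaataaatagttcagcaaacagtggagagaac

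Ifi208, a member of the PYHIN family on chromosome 1 (173673628 to 173698393), had 16.4 CPM in KO 7 and 13.4 CPM in KO 3, against 2.11 CPM in WT6 and 3.68 CPM in WT0. Its log2 fold change was 2.36 (SE 0.47), with an edgeR unadjusted p of 0.0039 and a DESeq2 adjusted p of 0.000151. Iigp1, an IRG on chromosome 18, had 40.4 and 33.0 CPM in KO 7 and KO 3, against 13.3 and 15.0 CPM in WT6 and WT0 (log2 1.37, SE 0.25, DESeq2 adjusted p = 0.00679). Both were more than 2-fold apart at the nearest pair of leukemias. Gbp2 had 51.9 and 59.5 CPM in KO 7 and KO 3, against 31.0 and 29.2 CPM in WT6 and WT0 (log2 0.89, SE 0.20). Apol7e, an apolipoprotein L family gene, had 10.5 and 8.90 CPM in the knock-outs and 2.83 and 5.15 CPM in the wild types. Serpina3f, a serine protease inhibitor, had 22.4 and 20.2 CPM in the knock-outs and 12.9 and 6.07 CPM in the wild types. H2-Q1, an MHC class Ib gene, had 24.9 and 19.5 CPM in the knock-outs and 4.91 and 10.7 CPM in the wild types. Reads of H2-Q1, Serpina3f and several GTPase genes can be shared with near-identical copies, so their single values are uncertain.

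Because 2 GTPases stood among the largest gaps, the whole family of GBP and IRG genes was then listed, a choice made after these values were seen. Of its 19 members kept, 11 were set apart higher and 0 lower, and 8 had all 6 knock-out libraries above all 6 wild-type libraries. Over all genes 10.3% were set apart higher and 10.2% lower, and 3.3% had all 6 knock-out libraries above. The median log2 fold change was 0.46, against 0.00 over all genes. Both knock-outs lay above WT6 in 12 of the 19, against 4999 of all 17226 genes, and above WT0 in 16 of the 19, against 5605 of all genes. Igtp had 98.5 and 81.9 CPM in KO 7 and KO 3, against 68.3 and 56.8 CPM in WT6 and WT0. Tgtp2 had 31.8 and 35.3 CPM in the knock-outs, against 16.03 and 20.9 CPM in the wild types, and Ifi47 had 109 and 95.8 CPM, against 73.2 and 63.7 CPM. The members that were not set apart included Gbp7, with 44.1 and 60.9 CPM in KO 7 and KO 3, against 44.7 and 51.6 CPM in WT6 and WT0. Most members lie near each other on chromosomes 3, 5 and 11 and share sequence, so they are not independent of each other. Gbp11, among the 11 set apart, is listed as a pseudogene and had a gap of 1.03-fold. Irgm1 and Gbp3, also among the 11, had gaps of 1.002-fold and 1.003-fold. Irf1, the transcription factor named above, had 116 and 118 CPM in the knock-outs and 91.6 and 89.0 CPM in the wild types (log2 0.38, SE 0.17). In the broader interferon response list, 2 of 35 members were set apart higher and 3 lower. Its median log2 fold change was 0.04, but -0.35 without WT6 and 0.59 without WT0, and both knock-outs lay above WT6 in 20 members and below WT0 in 20. Mx1, a gene of the type I response that the annotation used here lists as a pseudogene, was set apart lower by a gap of 1.02-fold. It had 2.07 and 1.21 CPM in the knock-outs and 2.11 and 2.12 CPM in the wild types. Of 16 genes of MHC class I presentation, 4 were set apart higher and 0 lower, among them Tap2, a peptide transporter subunit, with 304 and 202 CPM in KO 7 and KO 3, against 194 and 152 CPM in WT6 and WT0.

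**Figure D2:**
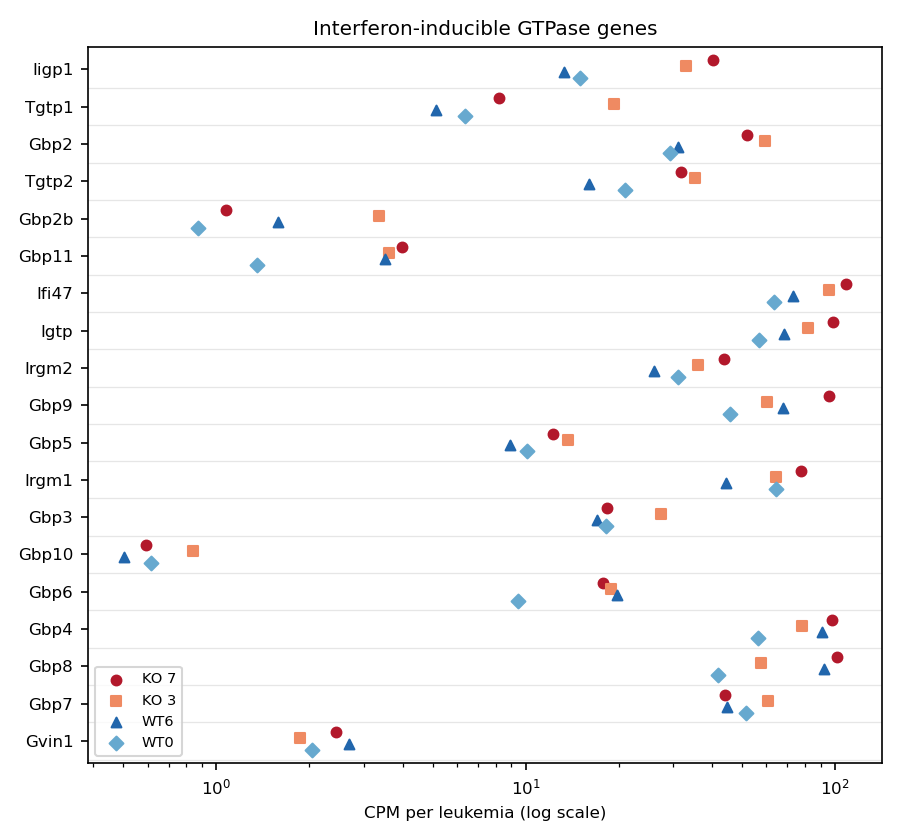
CPM on a log axis of the 19 interferon-inducible GTPase genes kept by the filter, ordered by log2 fold change, with 1 point for each leukemia. In 11 of them both knock-out points lie right of both wild-type points, and in the others the groups overlap.

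Promoters were read for 13058 of the 17226 genes, over 250 bases before and 50 bases after the start, on both strands. The core ISRE was searched as GAAA, any 2 bases and GAAA again, and the gamma-activated site as TTCNNNGAA, and matches of both may overlap. A gamma-activated site stood in 8.68% of all promoters, in 10.6% of those of genes set apart higher and in 7.93% of those set apart lower. With a gap of at least 1.5-fold it stood in 20 of 80 promoters of higher genes and in 17 of 141 of lower genes. A core ISRE stood in 3.93% of all promoters, in 6 of 80 of the higher and in 5 of 141 of the lower genes. Of the 11 GTPase genes with a promoter, 10 held a core ISRE and 6 a gamma-activated site. The site of RBPJ, the DNA-binding partner of NOTCH1, searched as TGGGAA, stood in 27.4% of all promoters, in 23.8% of those higher and in 34.8% of those lower by at least 1.5-fold. The E-box CACGTG stood in 10.8%, 5.0% and 7.80% of the same sets. A match is a description of the letters and not of binding.

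Of 7 granzyme genes kept by the count filter, a family listed after its values were seen, 5 were set apart higher and 0 lower. Over all genes 10.3% were set apart higher and 10.2% lower. The most abundant granzyme, Gzma, was not set apart. Of the 5, Gzmc, Gzmd and Gzme passed the filter only through their knock-out counts. Their direction was thus fixed by the filter, and the count of 5 carries no weight for them. Gzmb, granzyme B, a protease that killer cells deliver to their targets, had 8.79 CPM in KO 7 and 6.79 CPM in KO 3, against 0.992 CPM in WT6 and 0.484 CPM in WT0. This gave a log2 fold change of 3.39 (SE 0.61), an edgeR unadjusted p of 0.00237 and a DESeq2 adjusted p of 6.78e-07. Gzmb, Gzmc, Gzmd and Gzme lie next to each other on chromosome 14 and were all set apart higher, although the last 3 were near the detection limit and share sequence. Gzmd had 15 and 51 counts in KO 7 and KO 3 and 0 counts in WT6 and in WT0. Gzmk, on chromosome 13, was the fifth of them, with 2.11 and 1.06 CPM in the knock-outs and 0.490 and 0.242 CPM in the wild types. Gzma had 170 and 442 CPM in KO 7 and KO 3, against 418 and 394 CPM in WT6 and WT0. The 7 granzymes summed to 0.0178% and 0.0457% of counts in KO 7 and KO 3, against 0.0435% and 0.0389% in WT6 and WT0, so the sum did not separate the genotypes. Ccl3 and Ccl4, chemokines of activated T cells and macrophages, had 2.09 and 2.83 CPM and 1.61 and 1.60 CPM in KO 7 and KO 3, against 0.812 and 0.759 CPM and 0.644 and 0.549 CPM in WT6 and WT0. Ifng, interferon-gamma itself, was low everywhere, with 0.333 and 0.413 CPM in the knock-outs and 0.0902 and 0.145 CPM in the wild types. Of 23 genes of T cell activation, exhaustion and regulation, 7 were set apart higher and 1 lower, with a median log2 fold change of 0.00 that was 0.735 without WT6 and -0.38 without WT0. Gzmb, Gzmk and Ifng, already given above, were among the 7, as were the inhibitory receptors Ctla4 and Cd244a. Like Gzmc, Gzmd and Gzme, Ifng passed the filter only through its knock-out counts, so its place among the 7 carries no weight. Ctla4 had 6.40 and 13.3 CPM in KO 7 and KO 3, against 5.14 and 4.18 CPM in WT6 and WT0. Foxp3, the factor of regulatory T cells, was the gene set apart lower, with 0.203 and 0.476 CPM in the knock-outs and 1.08 and 0.985 CPM in the wild types. In bulk RNA, fewer cells of a type and less RNA per cell cannot be told apart. Of 9 NK cell markers kept, Prf1 alone was set apart higher, and their summed share of counts was 0.0191% and 0.0464% in KO 7 and KO 3, against 0.0447% and 0.0403% in WT6 and WT0.

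The other genes with large gaps on the higher side had varied roles. Mid1, a ubiquitin ligase bound to microtubules, had 10.6 and 14.3 CPM in KO 7 and KO 3, against 2.64 and 2.65 CPM in WT6 and WT0 (log2 2.23, SE 0.42, DESeq2 adjusted p = 2.83e-06). Ace, the angiotensin-converting enzyme, had 148 and 126 CPM in KO 7 and KO 3, against 21.1 and 47.7 CPM in WT6 and WT0 (log2 1.99, SE 0.43, DESeq2 adjusted p = 0.0366). Its neighbour on chromosome 11, Cyb561, a transmembrane electron carrier, had 31.9 and 29.3 CPM in the knock-outs and 17.99 and 16.6 CPM in the wild types. Cldn4, a claudin of tight junctions, had 36.5 and 38.4 CPM in the knock-outs and 2.69 and 11.0 CPM in the wild types. Gadd45g, a growth arrest gene, had 36.8 and 39.5 CPM in the knock-outs and 15.2 and 18.7 CPM in the wild types. The knock-outs were close to each other in these genes, and the wild types differed most in Cldn4 and Ace. Tubb3, a beta tubulin, Nxpe5 and Ccdc30 completed this group, with gaps of 1.65-fold, 1.96-fold and 1.59-fold.

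Fcgr4, an Fc receptor of macrophages and neutrophils, had 165 CPM in KO 7 and 48.3 CPM in KO 3, against 29.9 CPM in WT6 and 21.4 CPM in WT0. Of 19 macrophage markers kept, 5 were set apart higher and 0 lower, against 10.3% and 10.2% of all genes. After removal of the trend with exon length described below, 3 were set apart higher and 0 lower, against 7.74% and 8.93%. The summed share of counts of the 19 markers was 0.483% in KO 7 and 0.199% in KO 3, against 0.254% in WT6 and 0.153% in WT0. The summed level was highest in KO 7, while KO 3 lay between the wild types. The median log2 fold change of the 19 markers was 0.74, and 0.02 without KO 7. Mrc1, the mannose receptor, had 316 and 120 CPM in KO 7 and KO 3, against 92.5 and 63.3 CPM in WT6 and WT0. The part of macrophages in the genes set apart higher was not tested.

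**Figure D3:**
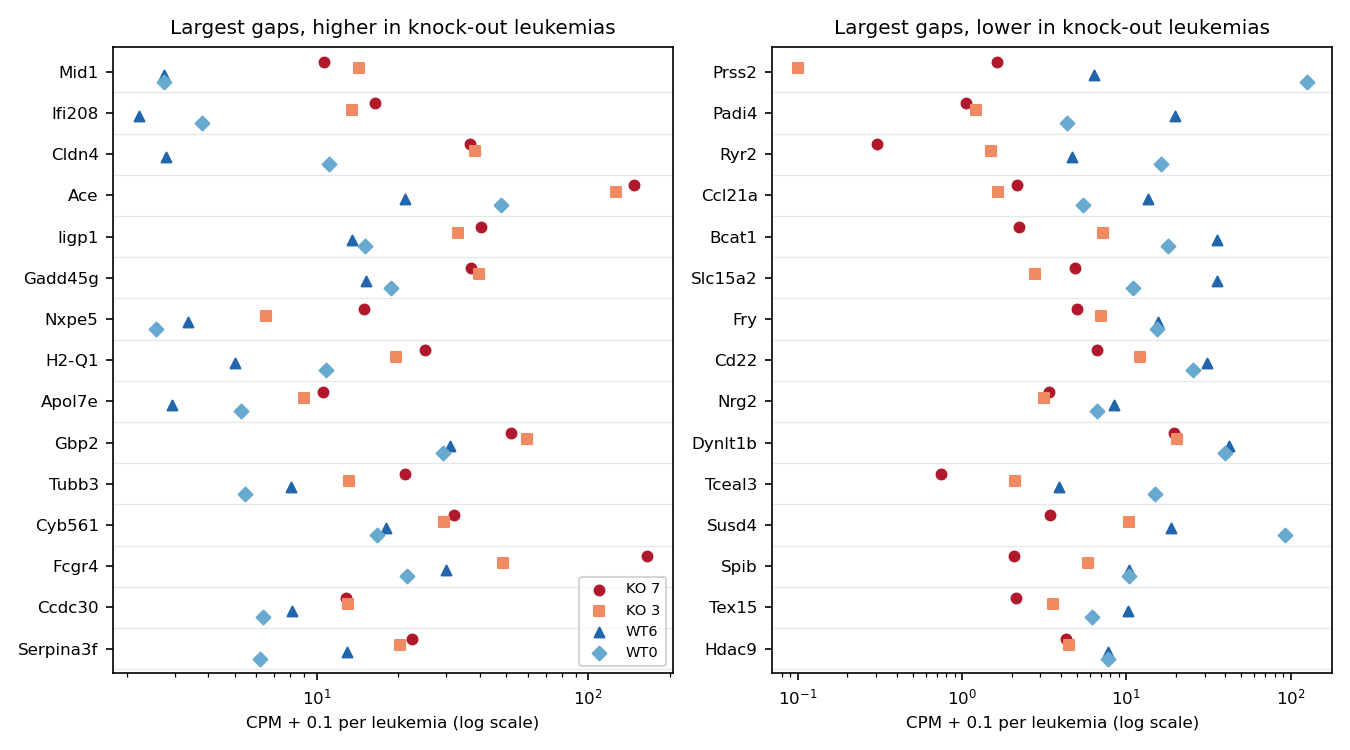
CPM plus 0.1 on a log axis for the 15 genes per direction with the largest gaps, with 1 point for each leukemia. The higher genes run from Mid1 to Serpina3f and the lower from Prss2 to Hdac9, and in every row the knock-out and wild-type points do not overlap.

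On the lower side, the largest gaps held Cd22 and Spib, which B cells express. Cd22, an inhibitory receptor of B cells, had 6.51 CPM in KO 7 and 12.1 CPM in KO 3, against 30.8 CPM in WT6 and 25.4 CPM in WT0 (log2 -1.60, SE 0.40). Spib, an ETS factor of B cells and plasmacytoid dendritic cells, had 1.98 and 5.73 CPM in the knock-outs and 10.2 and 10.2 CPM in the wild types. Of 14 B cell markers, 7 were set apart lower and 0 higher, against 10.2% and 10.3% of all genes. Their median log2 fold change was -1.17, and it was -0.59 without KO 7 and -2.20 without KO 3. Pax5, the factor that holds B cell identity, had 0.888 and 3.44 CPM in the knock-outs and 5.12 and 9.84 CPM in the wild types. The 14 markers summed to 0.0289% of counts in KO 7 and 0.0367% in KO 3, against 0.0765% in WT6 and 0.0341% in WT0, so the sum did not separate the genotypes although 7 members did. Both knock-outs lay below WT6 in 11 of the 14, against 5066 of all 17226 genes, and below WT0 in 10, against 5446 of all genes, and 0 of the 14 were at 0 in any leukemia. Immunoglobulin segments held 0.785% and 0.749% of counts in KO 7 and KO 3, against 2.42% in WT6 and 0.2398% in WT0, and of 214 segments 1 was set apart higher and 9 lower.

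Other cell types of the spleen were represented too. Padi4, a peptidylarginine deiminase of neutrophils, had 0.962 and 1.11 CPM in KO 7 and KO 3, against 19.6 and 4.23 CPM in WT6 and WT0, but it was the only 1 of 15 neutrophil markers set apart. Ccl21a, a chemokine of lymphoid stroma with near-identical copies, had 2.05 and 1.56 CPM in the knock-outs and 13.4 and 5.34 CPM in the wild types. The fibrillar collagen genes Col1a1 and Col1a2 were set apart lower as well, which made 3 of 14 stromal and endothelial markers. Col1a1 had 12.2 and 19.3 CPM in KO 7 and KO 3, against 31.6 and 28.8 CPM in WT6 and WT0. Fn1, fibronectin, named after its values were seen, had 23.4 and 36.2 CPM in the knock-outs and 112 and 58.0 CPM in the wild types. Of 11 markers of platelets, 6 were set apart lower and 0 higher by gaps of at most 1.22-fold. Over all genes 10.2% were set apart lower and 10.3% higher. In 0 of the 11 did all 6 knock-out libraries lie below all 6 wild-type libraries. Erythroid markers held 6.10% of counts in KO 7 and 1.20% in KO 3, against 1.26% in WT6 and 4.28% in WT0, and 0 of 15 were set apart. Antibody-secreting cells had 1 of 11 and dendritic cells 1 of 11 set apart lower, and mast cells and basophils 0 of 11. The part of these cells in the genes set apart lower was not tested.

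The remaining genes with large gaps on the lower side had varied roles. Slc15a2, a peptide transporter, had 4.74 and 2.70 CPM in KO 7 and KO 3, against 35.4 and 10.9 CPM in WT6 and WT0 (log2 -2.64, SE 0.70, DESeq2 adjusted p = 0.0478). Ryr2, a calcium release channel, had 0.203 and 1.40 CPM in the knock-outs and 4.59 and 16.2 CPM in the wild types. Susd4, a complement regulator, had 3.33 and 10.2 CPM in the knock-outs and 18.5 and 92.5 CPM in the wild types. Levels of Ryr2 and Susd4 differed at least 3-fold within each genotype, whereas those of Slc15a2 differed more between the wild types than between the knock-outs. Dynlt1b, a dynein light chain with near-identical copies, was steadier, with 19.3 and 20.2 CPM in KO 7 and KO 3, against 41.9 and 40.0 CPM in WT6 and WT0. The pseudogene Tmem181b-ps beside it on chromosome 17 had 25.5 and 21.7 CPM in the knock-outs and 65.8 and 63.8 CPM in the wild types. Hdac9, a class IIa histone deacetylase, had 4.16 and 4.37 CPM in the knock-outs and 7.65 and 7.64 CPM in the wild types. Fry, Nrg2, Tceal3 and Tex15 completed this group, with gaps of 1.76-fold to 2.21-fold. Nnt, the mitochondrial transhydrogenase that makes NADPH, was named after its values were seen and had 30.9 and 42.2 CPM in KO 7 and KO 3, against 61.4 and 67.6 CPM in WT6 and WT0.

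The direction in which genes were set apart went with the length of their exons. Genes set apart higher had a median exon length of 2364 bases and those set apart lower one of 5072 bases, against 3366 bases over all genes kept. With genes in 5 equal bins by exon length, 16.2% of the bin with the shortest genes were set apart higher and 6.79% lower, and in the bin with the longest 3.89% higher and 20.7% lower. As the median log2 deviation from the mean of the 4 leukemias, KO 7 lay at 0.00 and KO 3 at 0.09, against -0.02 in WT6 and -0.08 in WT0, in the bin with the shortest genes. In the bin with the longest genes KO 7 lay at -0.06 and KO 3 at -0.08, against 0.01 in WT6 and 0.14 in WT0. Between these bins WT0 spanned the widest range, and KO 3 ran in the opposite direction. The trend of each leukemia with exon length was therefore removed as an alternative chosen after seeing the data. This left 1333 genes set apart higher (7.74%) and 1538 lower (8.93%). Of the genes first set apart, 63.5% of the higher and 69.4% of the lower remained set apart in the same direction. All 30 genes with the largest gaps named above remained so, as did 9 of the 11 GTPase genes and the 5 granzymes set apart higher. Of these granzymes, Gzmc, Gzmd and Gzme had passed the count filter only through the knock-outs. Of the B cell markers, 10 of 14 were then set apart lower.

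**Figure D4:**
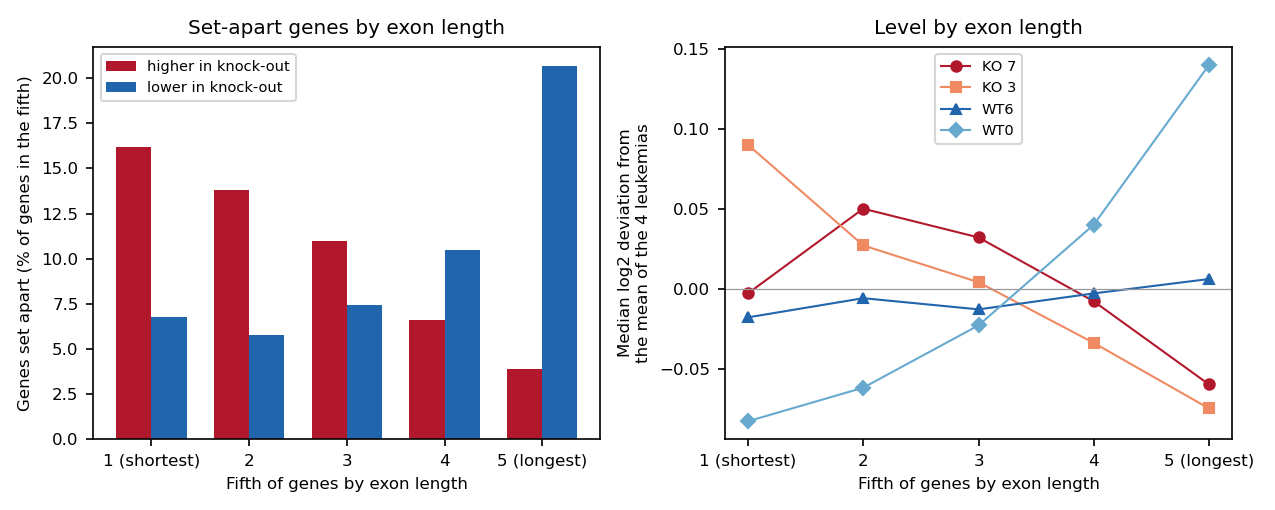
Left, the percent of genes set apart higher and lower in the knock-outs within 5 equal bins of genes by exon length. Right, the median log2 deviation of each leukemia from the mean of the 4 leukemias in the same bins, which spans -0.08 to 0.14 in WT0 and less in the others.

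Of 50 genes of oxidative phosphorylation, 33 were set apart higher and 0 lower, and 46 had a positive log2 fold change, with a median of 0.18. Ndufa8, a complex I subunit, had 94.2 and 89.7 CPM in KO 7 and KO 3, against 75.4 and 71.3 CPM in WT6 and WT0. Uqcrc1, a core subunit of complex III, had 259 and 250 CPM in the knock-outs, against 222 and 208 CPM in the wild types, and Cox5a of complex IV had 170 and 153 CPM, against 134 and 133 CPM. The median exon length of the list was 1014 bases, and 37 of its 50 genes were in the bin with the shortest genes. Without the length trend, 6 of 50 were set apart higher and 0 lower, near the 7.74% of all genes, and the median was 0.04. Before the trend was removed, the median was 0.13 to 0.19 without each leukemia in turn. Of 38 genes named as proteasome subunits, listed after their values were seen, 20 were set apart higher and 0 lower as counted. Without the trend 9 were set apart higher and 2 lower, a higher share than the 7.74% of all genes on the higher side. The gaps of these 9 were at most 1.05-fold, in Psmd2. The median log2 fold change of the 38 genes was 0.18 as counted and 0.06 without the trend. Of 78 mitochondrial ribosomal proteins, 22 were set apart higher as counted and 5 without the trend.

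Of 31 genes of the TCA cycle and glutamate metabolism, 6 were set apart higher and 0 lower, and 1 was set apart higher without the trend. Of 33 genes of leucine sensing and mTORC1, 8 were set apart higher and 5 lower, and without the trend 3 and 6. Deptor, an inhibitor bound to mTOR, had 39.0 and 76.1 CPM in KO 7 and KO 3, against 123 and 87.5 CPM in WT6 and WT0. Rraga, a Rag GTPase that brings mTORC1 to lysosomes, had 59.9 and 60.1 CPM in the knock-outs and 52.4 and 49.2 CPM in the wild types, and Mtor itself had 61.7 and 59.7 CPM, against 65.3 and 73.3 CPM. Of 25 genes of NRF2 and redox defence, 6 were set apart higher and 0 lower, and 4 higher and 0 lower without the trend, above the share of all genes in both cases. The median log2 fold change of this list was 0.22, and 0.04 without WT6. Sod2, the mitochondrial superoxide dismutase, had 74.8 and 78.7 CPM in KO 7 and KO 3, against 63.1 and 63.7 CPM in WT6 and WT0. The branched-chain breakdown genes beyond the dehydrogenase had 5 of 20 set apart higher as counted and 7 of 20 without the trend.

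**Figure D5:**
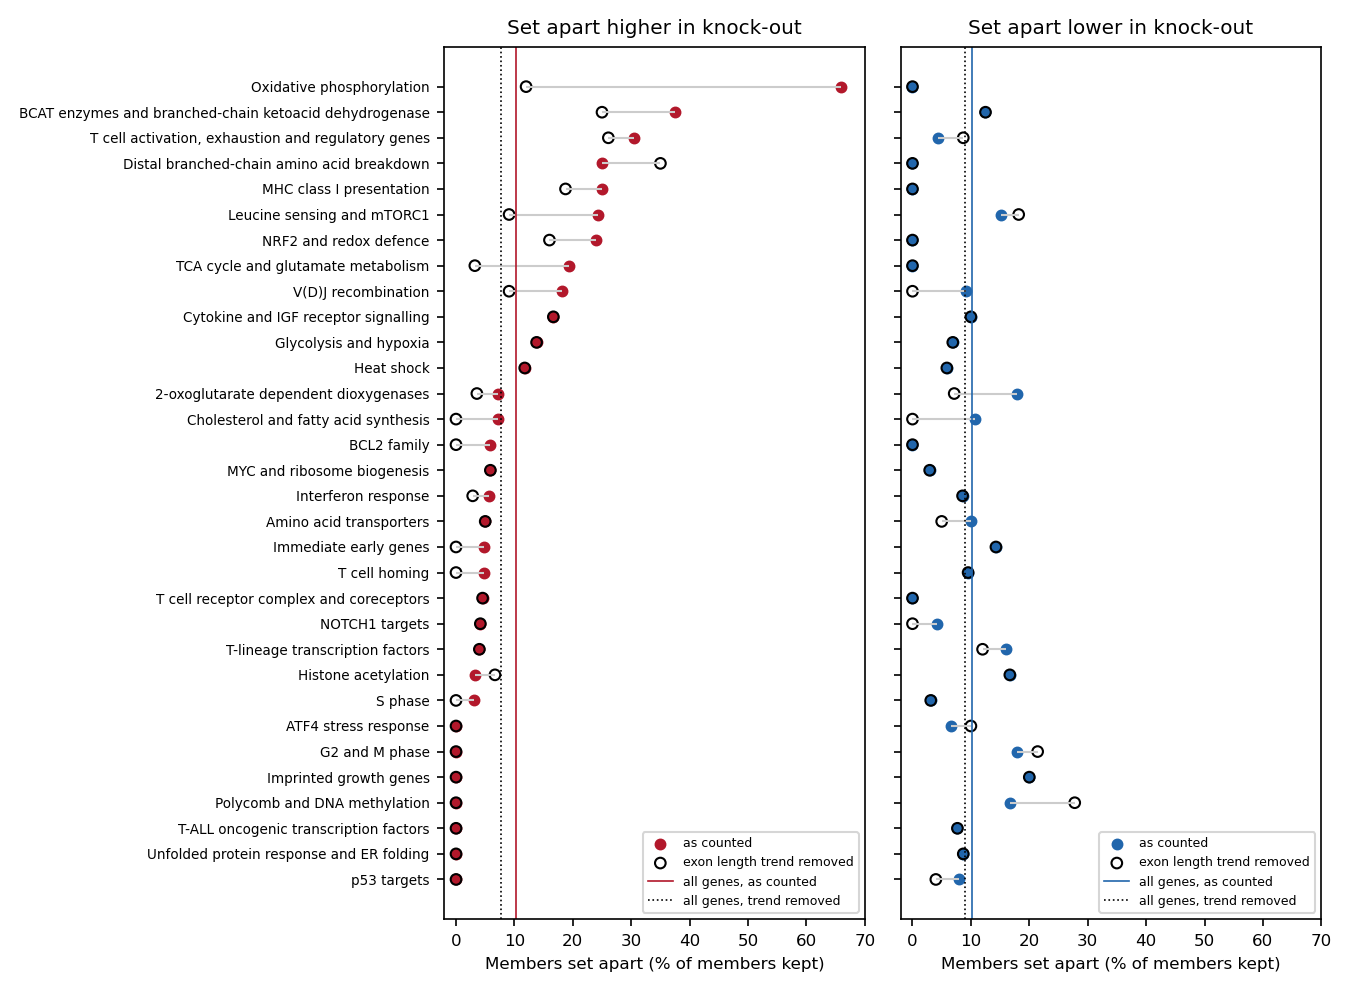
Percent of the members of 32 pathway lists that were set apart higher (left) and lower (right) in the knock-outs. Filled points are as counted, open points are after removal of the exon length trend, and the vertical lines mark the share of all genes, 10.3% and 10.2% as counted and 7.74% and 8.93% without the trend; oxidative phosphorylation moves from 33 of 50 to 6 of 50 members.

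Enzymes that use 2-oxoglutarate and other chromatin genes were set apart lower more often than higher as counted. Over all genes 10.3% were set apart higher and 10.2% lower, and 7.74% and 8.93% without the trend. Of 28 dioxygenases, 2 were set apart higher and 5 lower, and without the trend 1 and 2, below the share of all genes. Their median exon length was 6107 bases, against 3366 over all genes, and without the trend their median log2 fold change was -0.02. Tet3, which oxidises methylcytosine, had 68.7 and 84.9 CPM in KO 7 and KO 3, against 98.1 and 122 CPM in WT6 and WT0 (log2 -0.52, SE 0.21). Of 30 genes of histone acetylation, 1 was set apart higher and 5 lower, and without the trend 2 and 5. Of 18 genes of polycomb and DNA methylation, 0 were set apart higher and 3 lower, and without the trend 0 and 5. The medians of these 3 lists lay between -0.13 and -0.06, against 0.00 over all genes. That of histone acetylation was 0.001 without WT0, and that of polycomb and DNA methylation -0.02 without KO 7. Ezh2, the polycomb methyltransferase, had 218 and 225 CPM in the knock-outs and 228 and 232 CPM in the wild types. Cell cycle genes of G2 and M phase had 0 of 28 set apart higher and 5 lower, and 6 lower without the trend. Bub1b, a spindle checkpoint kinase, had 178 and 175 CPM in KO 7 and KO 3, against 211 and 240 CPM in WT6 and WT0. The median of this list was -0.13 and changed sign without KO 3 (0.03) and without WT0 (0.21). S phase genes had 1 of 32 set apart higher and 1 lower.

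The NOTCH1 pathway and its usual downstream genes did not separate the genotypes. Of 24 NOTCH1 targets, 1 was set apart higher and 1 lower, and the median log2 fold change was -0.04. Notch1, whose counts can include the transgene, had 1200 and 1095 CPM in KO 7 and KO 3, against 1064 and 1330 CPM in WT6 and WT0. Hes1, a direct NOTCH1 target, had 38.3 and 52.99 CPM in the knock-outs and 38.3 and 49.4 CPM in the wild types. Of 34 genes of MYC and ribosome biogenesis, 2 were set apart higher and 1 lower, and Myc had 199 and 296 CPM in the knock-outs and 204 and 303 CPM in the wild types. These groups overlapped in each named gene.

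Signalling and lineage genes had single members set apart. Of 30 genes of cytokine and IGF receptor signalling, 5 were set apart higher and 3 lower, with the same counts without the trend. Tyk2, a Janus kinase of the interferon and IL-12 receptors, had 108 and 110 CPM in KO 7 and KO 3, against 64.7 and 86.2 CPM in WT6 and WT0 (log2 0.54, SE 0.21). Of 25 T-lineage transcription factors, 1 was set apart higher and 4 lower. Id3, which holds back E proteins, had 68.5 and 89.0 CPM in the knock-outs and 50.6 and 54.6 CPM in the wild types. Ikzf2, the Ikaros family member Helios, had 56.6 and 148 CPM in KO 7 and KO 3, against 184 and 214 CPM in WT6 and WT0, and Tox2 had 5.88 and 9.98 CPM, against 23.5 and 13.4 CPM. Rag1, the recombinase subunit, had 784 and 964 CPM in the knock-outs and 765 and 610 CPM in the wild types.

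The remaining lists had 0 to 4 members set apart in either direction. The ATF4 stress response had 0 of 30 set apart higher and 2 lower, and the unfolded protein response 0 of 23 higher and 2 lower. Glycolysis and hypoxia had 4 of 29 higher and 2 lower, where Slc16a3, a lactate exporter, had 12.1 and 9.00 CPM in KO 7 and KO 3, against 6.38 and 5.49 CPM in WT6 and WT0. Cholesterol and fatty acid synthesis had 2 of 28 higher and 3 lower, and p53 targets 0 of 25 higher and 2 lower. The T cell receptor complex had 1 of 22 higher and 0 lower, V(D)J recombination 2 of 11 higher and 1 lower, T cell homing 1 of 21 higher and 2 lower, and the BCL2 family 1 of 17 higher and 0 lower. Immediate early genes had 1 of 21 higher and 3 lower, where Nr4a1, an orphan receptor induced by T cell receptor signals, had 46.2 and 30.9 CPM in the knock-outs and 80.2 and 47.8 CPM in the wild types. Heat shock genes had 2 of 17 higher and 1 lower, with a median log2 fold change of -0.02 but a mean of 0.13. Imprinted growth genes had 0 of 10 higher and 2 lower, with a median of -0.19 and a mean of 0.06. Oncogenic transcription factors of T cell leukemia had 0 of 13 kept set apart higher and 1 lower, with 6 of the 19 listed too low to keep.

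T cell receptor segments are joined differently in each T cell clone, and they had some of the widest gaps. Of 83 segments kept, 9 were set apart higher (10.8%) and 32 lower (38.6%), against 10.3% and 10.2% of all genes. Some of the 32 passed the count filter only through their wild-type counts. Trbv17, for example, had 3 and 4 counts in KO 7 and KO 3, against 1066 and 18526 in WT6 and WT0. The direction of such segments was fixed by the filter, and the count of 32 carries no weight for them. Trbv19 had 0.185 CPM in KO 7 and 0.127 CPM in KO 3, against 331 CPM in WT6 and 87.1 CPM in WT0, a gap of 403-fold. Trbv15 had 99.4 and 1227 CPM in KO 7 and KO 3, against 21.6 and 17.3 CPM in WT6 and WT0. Prss2, a trypsinogen gene on chromosome 6 from 41521776 to 41525079, lies among these beta segments and had 1.53 CPM in KO 7 and no count in KO 3, against 6.29 CPM in WT6 and 125 CPM in WT0. For these segments the clones of a leukemia and its genotype cannot be told apart.

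The genes set apart were spread over the genome, from 18.8% of genes on chromosome 10 to 22.6% on chromosome 16, with 0 of 6 genes on chromosome Y. Near Bcat1, 4 of 10 genes kept within 1 Mb were set apart, Bcat1 among them, and 12 of 59 within 5 Mb (20.3%), against 19.7% of the 916 genes of chromosome 6 farther than 10 Mb away. Rassf8, 0.749 Mb away, had 5.57 and 6.51 CPM in the knock-outs and 4.39 and 3.33 CPM in the wild types. The circadian regulator Bhlhe41 had 1.15 and 1.05 CPM in the knock-outs and 2.73 and 1.32 CPM in the wild types. Of 2795 gene models, 277 were set apart higher (9.91%) and 389 lower (13.9%), against 10.5% higher and 9.42% lower of 14048 other named genes. Of 78 pseudogenes, 10 were set apart higher and 8 lower.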

How the data were processed

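Per the file headers, the authors counted fragments with featureCounts 2.0.1 against RefSeq exons (GRCm38.p6) (properly paired ends, no chimeras, overlap of at least 25 bases, strand setting 2); the deposited values are raw counts, and the table's other unit is exon length in bases. The submitters' processing notes also name Trim Galore, STAR, Subread, DESeq2 and mm10. Counts were read for 39827 genes, without Neb, Mycbp2 and Huwe1, whose lines were broken, and with 0 columns of other samples. A symbol was found for 39743 IDs.

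Counts of 12 libraries were summed per leukemia, kept by filterByExpr, scaled by TMM and tested with edgeR 4.0.16 (quasi-likelihood, 2 residual degrees of freedom, Benjamini-Hochberg adjusted p under 0.05) in R 4.3.3, with DESeq2 1.42.0 as alternative. The test was tried on simulated data first. P-values rest on 2 leukemias per genotype, and precision is limited by that number and not by depth. Log2 CPM for gaps used a prior count of 2. For the length alternative a loess trend of log2 CPM with exon length was subtracted in each leukemia. Other alternatives were other scalings, no filter, libraries or leukemias left out, and 12-library fits.

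Named genes were Bcat1, in each direction the 15 largest gaps at 5 CPM or more on average (without receptor segments, Y-linked genes, Xist, gene models and pseudogenes), up to 4 members set apart per list by largest gap, 3 genes per direction on either side of the rule's edge, and genes set apart within 5 Mb of Bcat1. Others were named after their values were seen, as were the families of GTPases, proteasome genes, granzymes and mitochondrial ribosomal proteins. The comparison, the 43 gene lists and the rule were chosen with earlier results of these data known. A few genes are not reported here.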

Additional observations from a re-analysis of the deposited data

How the results depend on the processing

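Every comparison rests on 2 leukemias per genotype. edgeR called 0 genes in each direction with DESeq2 size factors, with library totals only, with scaling without non-T-cell genes, without the exon length trend and without 1 library of each leukemia. Without a count filter it called 1 higher and 1 lower, without 1 leukemia in turn 0 to 4 higher and 0 to 3 lower, and DESeq2 called 19 higher and 24 lower. A fit of the 12 libraries, whose spread is that between libraries of a leukemia only, called 4871 higher and 4587 lower. The library numbers do not pair libraries across leukemias (correlations of deviations from -0.125 to 0.079), and with the number as replicate block the same fit called 4828 higher and 4544 lower. Bcat1 had a log2 fold change of -2.699 there (adjusted p = 3.09e-53, edgeR) and of -2.701 with the replicate block (adjusted p = 1.24e-50), and from -3.655 to -1.905 without 1 leukemia in turn.

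Genes set apart were 5023 to 5696 higher and 4978 to 5870 lower without 1 leukemia, as 3 values separate more often than 4. They numbered 1684 to 1703 higher and 1697 to 1734 lower without 1 library of each leukemia, of which 80.7% to 82.0% and 79.5% to 82.5% of the original genes remained. Without a filter they were 2435 higher and 2862 lower. Stricter rules left 569 and 538 (all libraries apart), 117 and 198 (gap of 1.5-fold) and 52 and 98 (gap of 2-fold). With library totals only they were 1400 and 1955. Of the 164 single genes chosen by the naming rule, 3 turned direction: Qrich1 without KO 7 (0.003; -0.047 without KO 3), Arntl2 without library 1 of each leukemia (0.239), and Smarcal1 (0.033) without the length trend. The cause was not tested.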
